A study of Ovis aries with 8 samples.

Results

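The genes for galanin (GAL), the tachykinin precursor (TAC1), gastrin-releasing peptide (GRP), urocortin (UCN), pro-melanin-concentrating hormone (PMCH) and the orexin receptor HCRTR2 were examined in the hypothalamus of fetal sheep. They were chosen by name, with earlier results of these data known. These 6 genes have 11 probes on the array, of 870 named genes and 15008 probes in all. The study used 4 sets of twin fetuses fitted with catheters, and each of the 8 hypothalami was hybridised to 1 array. In the first group, 4 fetuses received estradiol-3-sulphate into the lateral cerebral ventricle from an osmotic mini-pump at 1 mg per day. Estradiol-3-sulphate is a stored form of estradiol, from which steroid sulphatase frees the active hormone. The second group held 4 control twins, described as infused with saline vehicle in the treatment protocol and as untreated in the design text, and called vehicle here. The pumps were placed at a gestational age of 120 to 127 days, and the hypothalami were collected at 130 to 134 days. For the length of the infusion, the sources differ between 7 to 12 days (design text) and 7 to 10 days (treatment protocol).

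Each of the 5 peptides is made by its own sets of hypothalamic neurons and acts on receptors coupled to G proteins. Galanin neurons lie in the preoptic, paraventricular and arcuate regions and bear on feeding, water balance and pituitary secretion, and the gene is a known estrogen target in the pituitary. TAC1 gives rise to substance P and neurokinin A. GRP is the mammalian relative of bombesin, urocortin is a relative of corticotropin-releasing hormone, and melanin-concentrating hormone comes from neurons of the lateral hypothalamus that lie among the orexin neurons, whose peptides act through HCRTR2 to maintain wakefulness.

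The sequences show what each signal rests on and how far the probes of a gene are separate readings. Each of the 5 peptide genes had a pair of probes, and HCRTR2 had 1. All probes are 60 bases long, with 35.0% to 45.0% G and C. The probes of GAL, of UCN and of PMCH overlap over 59 bases, those of GRP share 40, and those of TAC1 share no such stretch. Capitals mark the bases that lie in the stretch shared with the gene's other probe, and each is printed 5′ to 3′ as the array files give it. GAL and HCRTR2 are given whole, and the others by their first 30 bases.
GAL A_70_P001472: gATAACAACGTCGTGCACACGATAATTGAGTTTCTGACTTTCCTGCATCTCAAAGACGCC
GAL A_70_P001471: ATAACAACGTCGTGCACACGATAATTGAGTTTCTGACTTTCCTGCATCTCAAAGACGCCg
TAC1 A_70_P030232: atcagtggtaacttctcaacaaagcacagt
TAC1 A_70_P030231: cctccaaagaaaggaatcatttctatttct
GRP A_70_P030332: gttctttacatctaggccatCTATTAGATT
GRP A_70_P030331: CTATTAGATTCCAGTCCCCAACCTGTTACC
UCN A_70_P041287: gGGATACCCTGAGCACTCTCCGCGTTACCG
UCN A_70_P041286: GGATACCCTGAGCACTCTCCGCGTTACCGG
PMCH A_70_P002922: gTTGATTCAGTATTTTGAACTTCATTCTCA
PMCH A_70_P002921: TTGATTCAGTATTTTGAACTTCATTCTCAG
HCRTR2 A_70_P026626: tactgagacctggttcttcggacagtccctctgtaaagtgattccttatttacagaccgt

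Levels are given as log2 relative signal, the log2 of a probe's processed intensity minus that of the array's 75th percentile, so that 0 is the 75th percentile itself. Differences are estradiol sulphate minus vehicle on this scale. The arrays of the infused fetuses were brighter, with a 75th percentile of 1597.3 to 2282.9 intensity units against 981.5 to 1633.2, and 77% to 83.1% against 67.8% to 77.4% of probes well above background. On the slide, the first column held all treated arrays and the second all vehicle arrays, and the effects of column and treatment cannot be told apart. Estradiol sulphate replicate 1 stood apart in several genes of regional neurons and neighbouring tissue. It was the lowest of the 8 arrays for PMCH, for the somatostatin gene SST (1.98, against 3.52 to 4.21 in the others), for CRHBP and for the transthyretin gene TTR. Values without this array are given beside the main ones for GAL, TAC1, UCN, PMCH, HCRTR2 and CRHBP. Of 10 neuronal markers none was measured under its name. Of the 11 other hypothalamic peptide genes on the array, 7 were well above background on all 8 arrays.

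No gene of the 6 differed past the adjusted threshold of 0.05 in limma, where the p-values are adjusted over all 11749 probes tested, of which 0.0% passed. None passed at an unadjusted p under 0.05 either, against 9.13% of all probes tested. The groups overlapped in all 6, whereas they did not overlap for 5.96% of all probes. The fitted difference lay above 0 in GAL, TAC1, PMCH and HCRTR2 and below 0 in GRP and UCN. The median over the 6 genes was 0.30, and that over all probes tested was 0.04. All 11 probes were well above background on all 8 arrays and none was saturated, so each level is a measurement rather than a bound.

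**Figure D1:**
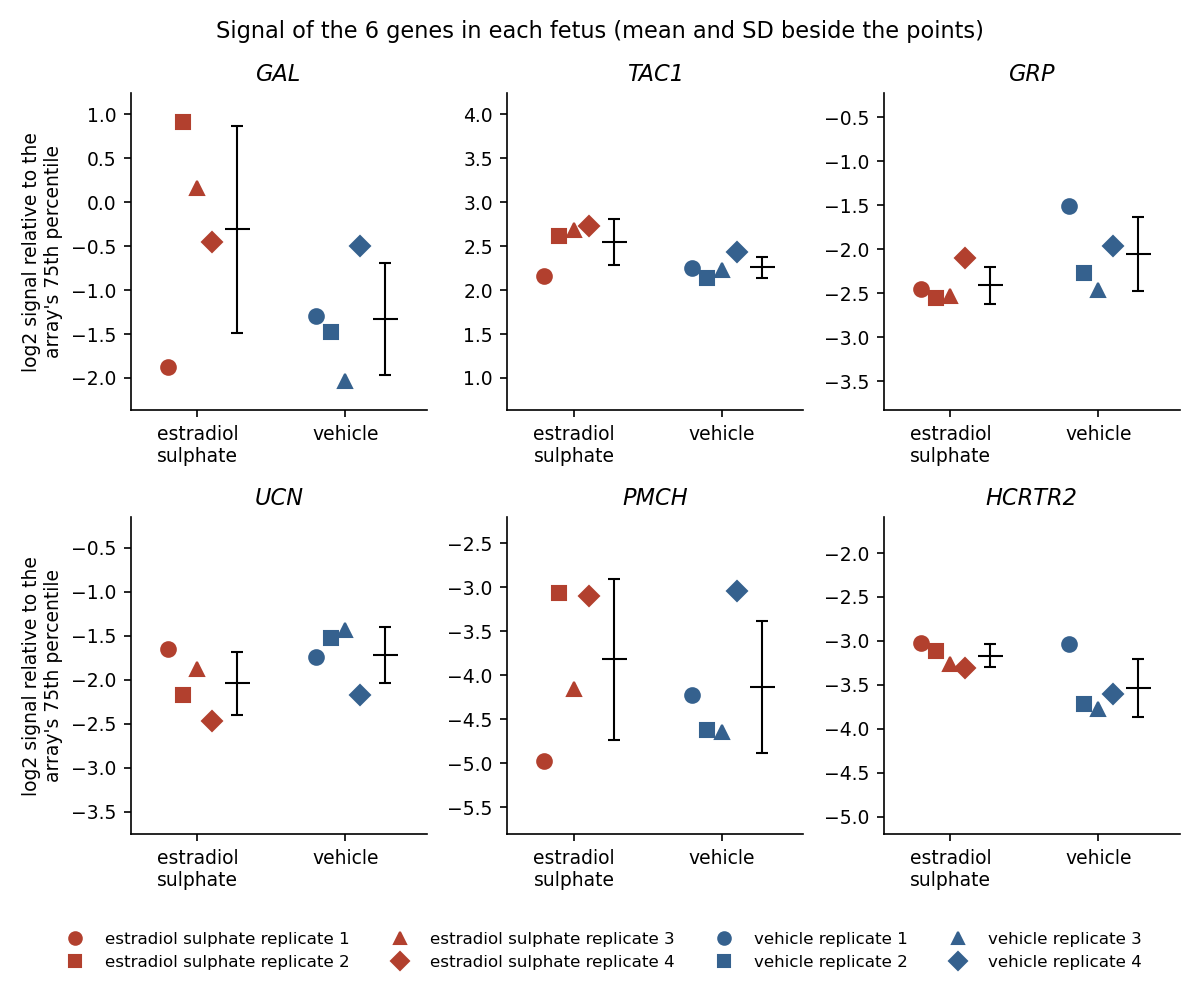
Log2 signal of the 6 genes, relative to the array's 75th percentile (vertical axis, with the same span in every panel), and 1 point per fetus, 4 fetuses per group, with the group mean and its SD beside the points. GAL and PMCH spread widely within both groups, while TAC1 and HCRTR2 stayed within narrow ranges.

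GAL was the gene of the 6 with the widest spread. Its log2 relative signal, in the order of replicates 1 to 4 as for all genes below, was -1.87, 0.91, 0.16 and -0.45 after estradiol sulphate and -1.30, -1.48, -2.04 and -0.50 in vehicle. The infused replicates 2, 3 and 4 lay above every vehicle fetus on this probe, the last of them by little, and replicate 1 lay below 3 of the 4 vehicle fetuses. In processed intensity the spots read 469, 3898, 2550 and 1173 units after estradiol sulphate and 662, 539, 320 and 694 units in vehicle. From the lowest fetus to the highest, the relative signal of galanin covered a 7.75-fold range.

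The GAL means were -0.31 ± 1.18 (SD, n = 4) and -1.33 ± 0.64 (SD, n = 4). The difference was 1.02 ± 0.55 (SE), a 2.03-fold higher signal with a 95% interval of 0.86 to 4.78-fold (limma unadjusted p = 0.0953, adjusted p = 0.625). This difference was higher than that of 99.4% of all probes tested, and the residual SD of 0.95 was larger than that of 98.1% of them. Without estradiol sulphate replicate 1 the difference was 1.54 (limma unadjusted p = 0.00482, adjusted p = 0.644), and without replicate 2 of the same group it was 0.61. The estimate thus depended on which of these fetuses was counted, and the adjusted p did not pass in any of the 19 alternatives, where it ran from 0.462 to 0.9.

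The other GAL probe gave 0.93 ± 0.55 (SE, limma adjusted p = 0.657). Its signal followed that of the first with r = 0.998 over the 8 arrays and lay 0.02 to 0.24 lower. On it, infused replicate 4 (-0.58) lay just below vehicle replicate 4 (-0.52), so 2 of the 4 infused fetuses were above every vehicle fetus. Since the pair is offset by a single base, this shows how repeatable the spots were and is no second reading of the transcript.

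TAC1 was steadier. Its first probe read 2.16, 2.62, 2.68 and 2.73 after estradiol sulphate, and 2.25, 2.14, 2.23 and 2.43 in vehicle. Replicates 2, 3 and 4 of the infused group lay above every vehicle fetus, and replicate 1 lay among the vehicle values. The means were 2.55 ± 0.26 (SD, n = 4) and 2.26 ± 0.12 (SD, n = 4). The difference was 0.29 ± 0.15 (SE), or 1.22-fold, with a 95% interval from -0.05 to 0.63 (limma unadjusted p = 0.0898, adjusted p = 0.62).

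The other TAC1 probe, which shares no stretch with the first, differed by 0.28 ± 0.16 (SE, limma adjusted p = 0.633). It was printed as 5 spots, with a coefficient of variation between spots of 4.20% to 7.34% per array. Both TAC1 probes thus put the same 3 infused fetuses highest, from different bases of the transcript, and their r over 8 arrays was 0.891. The first probe's difference was 0.42 without estradiol sulphate replicate 1 (limma unadjusted p = 0.00894, adjusted p = 0.644). It was 0.18 when arrays were scaled to their median, and 0.37 to 0.40 after quantile, normexp and quantile or cyclic loess normalization (limma unadjusted p from 0.0182 to 0.032, adjusted p from 0.665 to 0.786). On the main scale the 2350 probes with the highest signal, which include TAC1, had a median difference of -0.12.

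**Figure D2:**
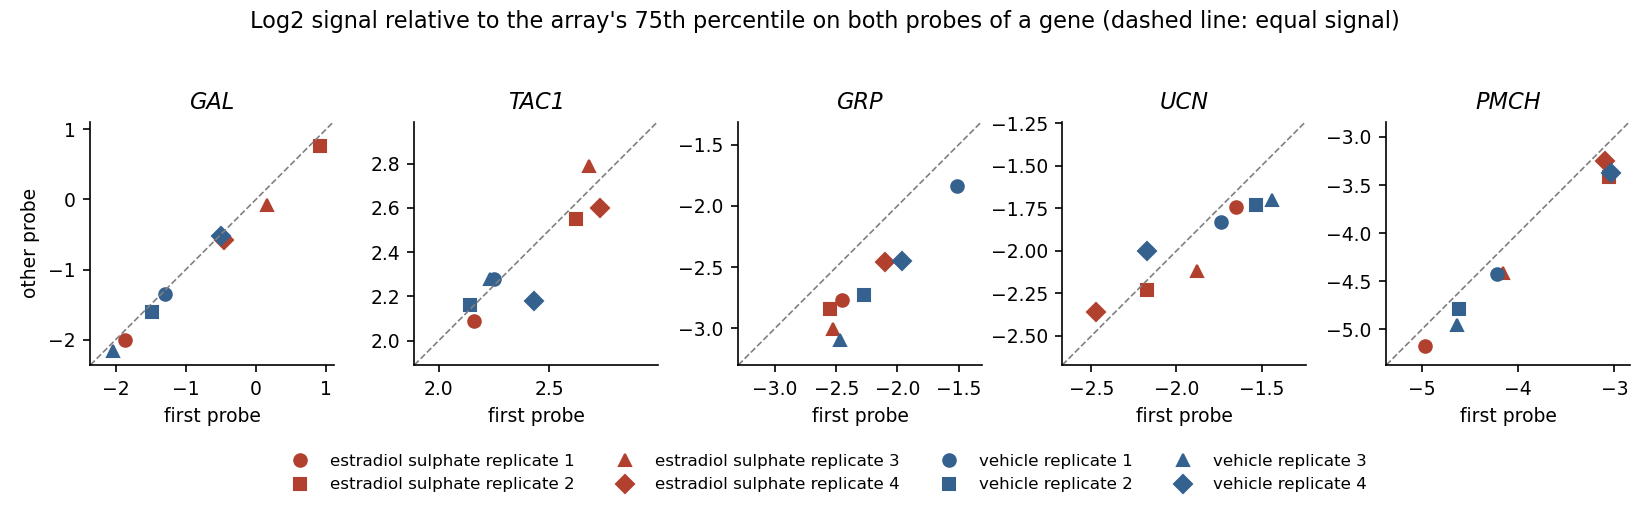
Log2 relative signal of the second probe (vertical axis) against the first (horizontal axis) for the 5 genes with a pair of probes, with 1 point per fetus and a dashed line of equal signal. The order of the fetuses was nearly the same on both probes of GAL and PMCH (r of 0.998 and 0.996). It was less so for GRP, UCN and TAC1 (r of 0.96, 0.928 and 0.891). The probes of UCN share 59 bases and those of TAC1 share no stretch.

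GRP and UCN, the bombesin-like and the corticotropin-releasing hormone-like peptide, had lower means after estradiol sulphate. GRP read -2.45, -2.55, -2.53 and -2.10 in the infused fetuses and -1.51, -2.27, -2.47 and -1.96 in vehicle. Vehicle replicate 1 was the highest of the 8, and the other 7 fetuses lay close together. The means were -2.41 ± 0.21 (SD, n = 4) and -2.06 ± 0.42 (SD, n = 4), with a difference of -0.35 ± 0.21 (SE), 1.28-fold lower (limma unadjusted p = 0.128, adjusted p = 0.66). Without vehicle replicate 1 it was -0.17, and on the other GRP probe it went from -0.24 ± 0.25 (SE) to -0.01, so that fetus carried much of the estimate. Without vehicle replicate 3 the first probe gave -0.49 (limma unadjusted p = 0.0414, adjusted p = 0.56).

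UCN read -1.65, -2.17, -1.88 and -2.47 after estradiol sulphate and -1.74, -1.53, -1.44 and -2.17 in vehicle. Infused replicate 4 was the lowest, followed by infused replicate 2 and vehicle replicate 4 at nearly the same level. The means were -2.04 ± 0.36 (SD, n = 4) and -1.72 ± 0.32 (SD, n = 4), a difference of -0.32 ± 0.22 (SE), 1.25-fold lower (limma unadjusted p = 0.168, adjusted p = 0.703). The other UCN probe differed by -0.30 ± 0.15 (SE, limma unadjusted p = 0.0799, adjusted p = 0.603). It gave -0.41 to -0.34 under the 5 other scalings (limma unadjusted p from 0.0205 to 0.0303, adjusted p from 0.495 to 0.783) and -0.42 without estradiol sulphate replicate 1 (limma unadjusted p = 0.0115, adjusted p = 0.644). Under the same scalings the first probe gave -0.43 to -0.37 (limma unadjusted p from 0.0629 to 0.121, adjusted p from 0.557 to 0.866). The UCN probes share 59 bases and are no separate readings of the transcript. Over the 19 alternatives the first probe ran from -0.47 (without vehicle replicate 4, limma unadjusted p = 0.0435, adjusted p = 0.439) to -0.18 (without estradiol sulphate replicate 4).

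PMCH separated fetuses but not groups. It read -4.97, -3.06, -4.16 and -3.10 after estradiol sulphate and -4.22, -4.62, -4.64 and -3.04 in vehicle. Infused replicates 2 and 4 and vehicle replicate 4 lay within 0.06 of each other at the top, and the lowest fetus, infused replicate 1, was 3.80-fold below the highest. In intensity the probe read 52.9 to 248 units, where the dimmest probes well above background read 19.5 to 38.6 units per array.

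The PMCH means were -3.82 ± 0.92 (SD, n = 4) and -4.13 ± 0.75 (SD, n = 4). The difference of 0.31 ± 0.49 (SE) had a 95% interval from -0.79 to 1.41 (limma unadjusted p = 0.542, adjusted p = 0.898), so the arrays could not show a change of this size. It was 0.69 without estradiol sulphate replicate 1 and 0.06 after cyclic loess normalization. The residual SD of 0.84 was larger than that of 97.4% of probes tested. The other PMCH probe gave 0.32 ± 0.47 (SE) with r = 0.996 to the first. In whole hypothalami, fewer cells of a type and less RNA per cell cannot be told apart, for this gene and the others here.

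HCRTR2, the one receptor among the 6, read -3.02, -3.11, -3.26 and -3.31 after estradiol sulphate and -3.04, -3.72, -3.77 and -3.60 in vehicle. The infused fetuses lay close together and above vehicle replicates 2, 3 and 4, while vehicle replicate 1 was among the infused values. The means were -3.17 ± 0.13 (SD, n = 4) and -3.53 ± 0.33 (SD, n = 4), and the difference was 0.36 ± 0.17 (SE), or 1.28-fold, with a 95% interval from -0.03 to 0.75 (limma unadjusted p = 0.0673, adjusted p = 0.58). Without vehicle replicate 1 it was 0.52 (limma unadjusted p = 0.00405, adjusted p = 0.452). Without estradiol sulphate replicate 1 it was 0.31 (limma unadjusted p = 0.146, adjusted p = 0.782), and with 1 array left out it ran from 0.28 to 0.52. It was 0.12 after normexp background correction with quantile normalization. The 2350 probes of similar signal, which include HCRTR2, had a median difference of 0.10.

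**Figure D3:**
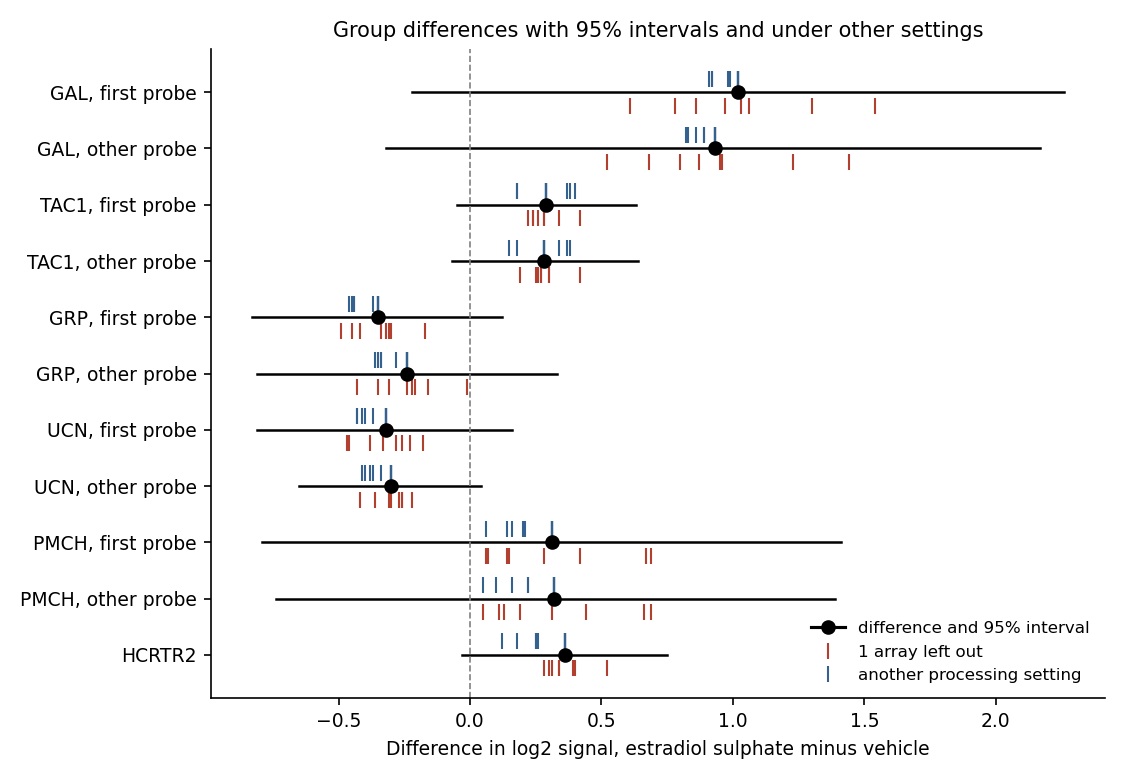
Difference in log2 signal between the groups (horizontal axis) for the 11 probes of the 6 genes, as a black point with its 95% interval from limma. Blue marks above each line give the value under another processing setting and red marks below it the value with 1 array left out. All 11 intervals include 0, and no mark of any probe lies on the other side of 0 from its point.

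How far the 6 genes varied together from fetus to fetus was examined in pairs. Over the 8 arrays, 15 gene pairs were compared with an exact two-sided permutation test and Benjamini-Hochberg adjustment over the 15. The test shuffled all 8 fetuses freely, without regard to group or twin set, so its p-values allow for neither. UCN was low where PMCH was high, with Pearson r = -0.92 (exact permutation p = 0.00332, adjusted p = 0.0499) and Spearman rho = -0.86 (exact permutation p = 0.0107, adjusted p = 0.0817). This was the only pair past 0.05 in r, and no pair passed in rho. Without the fetuses farthest from the median of UCN (estradiol sulphate replicate 4 and vehicle replicate 3) r was -0.95, and after subtracting the group means it was also -0.95. With 1 array left out, r lay between -0.94 and -0.91. The pair then passed only without estradiol sulphate replicate 1 or 4 (exact permutation adjusted p = 0.0476 and 0.0461), and in the other 6 cases the adjusted p ran from 0.053 to 0.17.

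The call did not hold under the other scalings. With quantile, normexp and quantile, median, cyclic loess or the authors' own scaling, r for UCN and PMCH lay between -0.80 and -0.76, and the adjusted p from the exact permutation test between 0.0914 and 0.18. Both genes were read on the same arrays and share their scaling value, and the part of this in the correlation was not tested. The call was made on the probe that stands for each gene. Over the arrays the other UCN probe differed from the first by -0.25 to 0.17, and its correlation with PMCH was not tested.

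GAL and TAC1 were high and low in much the same fetuses, with r = 0.85 (exact permutation p = 0.0109, adjusted p = 0.0799) and rho = 0.81 (exact permutation p = 0.0218, adjusted p = 0.0817). Without estradiol sulphate replicate 2 and vehicle replicate 3, r was 0.91. TAC1 and UCN ran in opposite directions, with r = -0.83 (exact permutation p = 0.016, adjusted p = 0.0799) and rho = -0.83 (adjusted p = 0.0817), and r was -0.88 without estradiol sulphate replicates 3 and 4. GAL and PMCH had r = 0.77 (exact permutation adjusted p = 0.111) and rho = 0.81, with r = 0.66 without the 2 farthest fetuses. None of these passed adjustment. The pairs that held GRP or HCRTR2 had r between -0.28 and 0.32, with adjusted p from 0.837 to 0.859 in the exact permutation test. After subtracting the group means, r was 0.70 for GRP and HCRTR2, -0.53 for GRP and UCN, and -0.25 to 0.34 for the others. For GRP and HCRTR2, r was 0.95 within the vehicle group and -0.56 within the estradiol sulphate group.

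**Figure D4:**
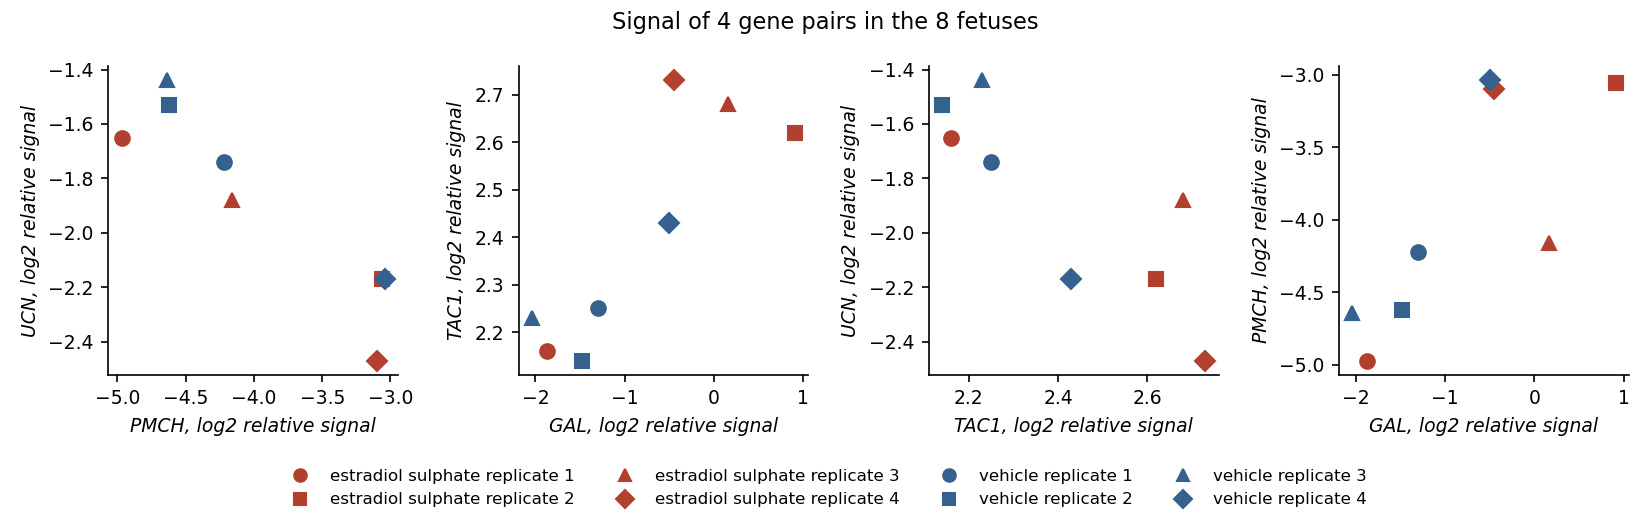
Log2 relative signal of 4 gene pairs, with 1 point per fetus. UCN is lower where PMCH and TAC1 are higher, and estradiol sulphate replicate 1 lies nearer to vehicle replicates 2 and 3 than to the other infused fetuses in each panel. In the first panel estradiol sulphate replicate 2 and vehicle replicate 4 nearly coincide.

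For each of the 6 genes, the 3 most similar of 690 named genes by Pearson r over the 8 arrays were taken, as a description with no test. PMCH was closest to TSHB (r = 0.962) and CGA (r = 0.955), which encode the beta and the common alpha subunit of pituitary hormones, and to CRHBP (r = 0.954), a secreted protein that binds corticotropin-releasing hormone and urocortin. TSHB read -8.12, -2.41, -4.35 and -1.84 in the infused fetuses and -5.00, -7.52, -7.49 and -2.82 in vehicle. The 3 fetuses highest for PMCH were also the highest for TSHB and CGA. In estradiol sulphate replicate 1 and vehicle replicates 2 and 3, TSHB was not well above background, so its values there have no order.

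Of 8 pituitary markers, 6 were on the array. FSHB and POU1F1 were well above background on no array, and TSHB and CGA on 5 and 6 of the 8. The summed level of the list was 4.18 to 4.82 after estradiol sulphate and 3.95 to 4.91 in vehicle. The brighter probe of LHB (3.85 to 4.91) set most of this sum, and the other LHB probe read -3.27 to -2.66, so the sum says little about the list. LHB and PRL were the other pituitary genes well above background on all 8 arrays. On its brighter probe, LHB was lowest in vehicle replicate 4 (3.85) and estradiol sulphate replicate 2 (4.08), which were among the highest for PMCH. Estradiol sulphate replicate 4, also among the highest for PMCH, read 4.72 there. On the other LHB probe vehicle replicate 4 (-3.27) was again at the low end, but estradiol sulphate replicate 2 (-2.78) was not. PRL read -4.96, -4.26, -3.98 and -4.03 in the infused fetuses and -4.05, -4.27, -3.73 and -3.59 in vehicle. As for PMCH, estradiol sulphate replicate 1 was lowest for PRL and vehicle replicate 4 highest, and the other PRL probe had the same ends. Vehicle replicate 3, among the lowest for PMCH, was next to the highest on this PRL probe. Of 7 choroid plexus markers, 3 were on the array. TTR ran from -3.14 in estradiol sulphate replicate 1 to 2.66 in replicate 4 of that group, and CLDN2 and AQP1 were well above background on no array. The summed level of that list was -2.92 to 2.66 in the infused fetuses and -0.86 to -0.33 in vehicle. The part of these tissues in the PMCH pattern was not tested.

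CRHBP itself did not separate the groups. It read -1.72, 0.59, -0.60 and 0.57 after estradiol sulphate and -0.07, -0.71, -0.90 and 0.68 in vehicle, with a difference of -0.04 ± 0.54 (SE, limma adjusted p = 0.992). Without estradiol sulphate replicate 1, CRHBP differed by 0.44 (limma adjusted p = 0.905). Its spread followed that of PMCH, with r = 0.98 after the group means were subtracted. Its ligand UCN was low in the fetuses in which the binding protein was high.

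GAL was closest to GLUD1 (r = 0.939), which encodes glutamate dehydrogenase, to PCSK1 (r = 0.894), the convertase that cleaves peptide precursors, and to EGFR (r = 0.894). TAC1 was closest to IL1A (r = 0.878), EGFR (r = 0.868) and TSHB (r = 0.864). Among the genes most similar to GRP were FSHR (r = 0.878) and LOC443035 (r = 0.853). UCN was closest to FCER1A (r = 0.937), ARL1 (r = 0.924) and CD247 (r = 0.905). Among these, EGFR, FCER1A, FSHR and LOC443035 were well above background on 4 to 7 of the 8 arrays, so their profiles rest partly on values near background.

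HCRTR2 was closest to AGRP (r = 0.925), the melanocortin antagonist of arcuate neurons, to HSPA5 (r = 0.924), a chaperone of the endoplasmic reticulum, and to the immediate early gene FOS (r = 0.896). Vehicle replicate 1 was high for AGRP as it was for HCRTR2, at -0.56 against -5.67 to -3.57 in the other vehicle fetuses. AGRP was well above background in only 2 of 4 vehicle fetuses, so its profile too rests partly on values near background. HSPA5 differed by 0.27 ± 0.12 (SE) and FOS by 0.28 ± 0.16 (SE). After subtracting the group means, r for HCRTR2 was 0.876 with AGRP, 0.881 with HSPA5 and 0.836 with FOS.

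The wider systems of these peptides were read from a list of 50 other ligands, receptors, binding proteins and processing enzymes, of which 19 were on the array under their names and 18 were tested. The difference lay above 0 in 12 and below 0 in 6, with a median of 0.11. At an unadjusted p under 0.05 in limma, NPY, AGRP and GHRH were higher, where 6.21% of all probes were, and NPVF was lower, where 2.92% were. None of the 18 passed after adjustment. The sizes of these 4 were 1.61 ± 0.42, 3.66 ± 1.10, 2.58 ± 0.94 and -1.21 ± 0.49 (SE), and AGRP and GHRH were well above background in only 2 of 4 vehicle fetuses. The other probes of NPY, AGRP and NPVF also had an unadjusted limma p under 0.05. The other GHRH probe did not, at 2.31 ± 1.06 (SE, 95% interval -0.09 to 4.70, limma unadjusted p = 0.0572). When only probes well above background on all 8 arrays were kept, the count of 4 became 2.

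None of the 5 receptors measured beside HCRTR2 passed at an unadjusted p under 0.05 in the main analysis. GALR1 and GALR3, both galanin receptors, differed by 0.01 ± 0.16 (SE, 95% interval -0.36 to 0.37) and 0.07 ± 0.13 (SE, 95% interval -0.22 to 0.35). BRS3, an orphan relative of the GRP receptor, differed by 0.02 ± 0.16 (SE, 95% interval -0.35 to 0.39). The sign of each of these 3 changed under some of the other scalings, and the differences then lay between -0.14 and -0.04. CRHR1, which binds urocortin, differed by 0.42 ± 0.27 (SE, limma adjusted p = 0.688), and without vehicle replicate 4 by 0.13. HCRTR1, the other orexin receptor, differed by -0.09 ± 0.16 (SE, 95% interval -0.45 to 0.26), and by -0.32 after cyclic loess normalization (limma unadjusted p = 0.0304, adjusted p = 0.696).

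HCRTR1 and HCRTR2 had estimates of different sign, and the difference between them was not tested. The receptors GALR2, TACR1, TACR2, TACR3, GRPR, NMBR, CRHR2 and MCHR1 were not analysed here, nor was the orexin gene HCRT itself.

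Among the enzymes that turn precursors into peptides, PCSK1 differed by 0.40 ± 0.38 (SE) and carboxypeptidase E (CPE) by 0.23 ± 0.18 (SE). TAC3, the neurokinin B gene and relative of TAC1, differed by 0.16 ± 0.56 (SE) with the sign turned by leaving out estradiol sulphate replicate 2 or vehicle replicate 2. It read -4.16, -2.04, -2.45 and -2.30 in the infused fetuses and -2.69, -4.28, -2.55 and -2.06 in vehicle, so 1 fetus of each group lay far below the rest. The enkephalin precursor PENK was well above background on no array. Of 5 astrocyte markers on the array all lay above 0 on the probe that stands for each gene, with a median of 0.32. Among their other probes, only that of GJA1 lay below 0, at -0.12 ± 0.32 (SE). The summed level of the list was 4.43 to 5.44 against 3.92 to 5.26. AQP4, by far the brightest of the 5, set most of this sum, which thus says little about the other markers. SLC1A2 differed by 0.63 (limma unadjusted p = 0.0278, adjusted p = 0.515). Its other probes differed by 0.76 (limma adjusted p = 0.429) and 0.21 (limma adjusted p = 0.751). LEF1, the only measured marker of thalamus and cortex, differed by 1.10 ± 0.15 (SE, limma adjusted p = 0.24). Only 1 vehicle fetus had a signal well above background on this probe. The other LEF1 probe differed by 1.09 ± 0.54 (SE, limma unadjusted p = 0.0727), and on it the groups overlapped. The part of neighbouring tissue in the differences of the 6 genes was not tested.

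**Figure D5:**
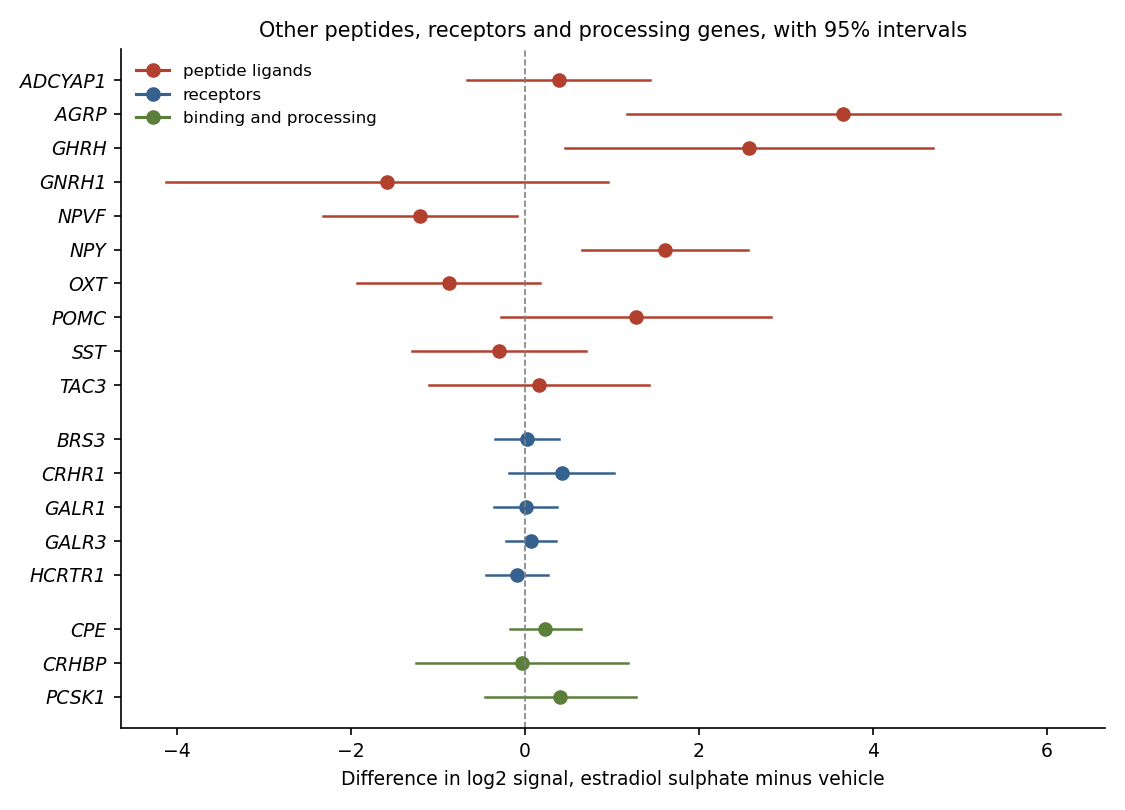
Difference in log2 signal between the groups (horizontal axis) with its 95% interval from limma for 18 other genes of the peptide systems, 4 fetuses per group, coloured by role. The receptors GALR1, GALR3, BRS3 and HCRTR1 lie between -0.09 and 0.07. On the probe that stands for each gene, AGRP, GHRH, NPY and NPVF have intervals that leave out 0.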

How the data were processed

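Spots were quantified by Agilent Feature Extraction (version 10.1.1.1) from 1-colour scans, per the file headers. The processed intensity that the authors deposited had been background-subtracted and detrended array by array. A second deposited table holds log2 values. For 99.667% or more of the probes, each column equals log2 of the intensity less a constant of that array, with column medians from 0.0576 to 0.075. How the constant was set is unknown here, and the table served as an alternative.

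Control and outlier spots were dropped, repeated spots were averaged by probe, and log2 intensity was set relative to each array's 75th percentile. Probes well above background on at least 4 of 8 arrays were tested, 11749 in all, with limma 3.58.1 in R 4.3.3 (group as the only term, two-sided, Benjamini-Hochberg over all probes, threshold 0.05). The model was tested on simulated data. Names came from the array design and a RefSeq gene table, used for names only, and covered 1404 probes (9.4%). The probe given for each gene stands for it, and otherwise the probe with the highest mean signal. The named genes are the 6 genes, a list of 50 related genes, marker lists, and the 3 named genes most similar to each of the 6. One of these similar genes is not reported here. The members and lists were chosen with earlier results of these data known. Alternatives were other scalings, background corrections, filters and limma options, the replicate block and leaving out each array. Array number limits precision. Within groups, arrays correlated at 0.972 to 0.991 and no 2 held identical values. Each fetus counts as a replicate, from 4 twin sets, and the labels do not tie replicate numbers to twins.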

Additional observations from a re-analysis of the deposited data

Results flagged for a closer look

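Of 58 groups of 4 fetuses examined, 3 held a fetus whose gap to the nearest other exceeded Dixon's 95% critical value, as a share of the group's range. Chance gives such a gap in about 1 in 20 groups. None of the 6 genes was among them. The somatostatin gene SST (A_70_P051297) read 1.98 in estradiol sulphate replicate 1, against 3.92 to 4.21 in the other infused fetuses. The galanin receptor gene GALR1 (A_70_P001466) read -2.33 in vehicle replicate 4, against -1.85 to -1.79. The urocortin receptor gene CRHR1 (A_70_P029981) read -6.62 in the same fetus, against -5.52 to -5.43, and there it was not well above background. Vehicle replicate 4 also had the lowest 75th percentile of the 8 arrays, 981.5 intensity units.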

How the results depend on the processing

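Under all 19 alternatives none of the 6 genes, and none of all probes tested, passed the adjusted threshold, and no probe of the 6 genes changed sign. At an unadjusted p under 0.05, counted on the probe that stands for each gene, TAC1 passed with quantile, normexp and quantile and cyclic loess normalization (1 of the 6 genes each), and the count ran from 0 to 2 with 1 array left out. The other UCN probe, outside this count, passed under the same 3 and with median and deposited scaling (p from 0.0205 to 0.0303). Over all probes the unadjusted count of 1073 became 691 with quantile normalization (397 higher, 294 lower) and 2082 without the filter (903 higher, 1179 lower), and ran from 638 to 1289 with 1 array left out. Median scaling gave 345 higher and 747 lower, and the authors' deposited values gave 344 higher and 760 lower, against 730 and 343 in the main analysis. The median difference over all probes was -0.06 with both of these scalings, against 0.04.

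For the pairs of genes, the count past the threshold was 1, and 0 with quantile, normexp and quantile, median and cyclic loess scaling and with the deposited values. It ran from 0 to 3 with 1 array left out. The count of related genes, 4, was 2 with probes well above background on all arrays and ran from 2 to 6 with 1 array left out.

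Same-numbered fetuses deviated together with r of 0.24, -0.01, 0.19 and 0.25, so, with 1 of 4 not above 0.1, the numbers were not taken to pair twins. Infused replicates 1, 3 and 4 correlated best with the vehicle fetus of their own number, and replicate 2 did not. With the replicate number as a block, HCRTR2 passed at an unadjusted limma p of 0.0431 (1 of the 6 genes), the count of related genes was 2, and that over all probes was 1158. GHRH and NPVF no longer passed in that fit (limma unadjusted p of 0.0512 and 0.0789).

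GALR1 turned to -0.07, -0.05, -0.10, -0.07 and -0.10 with quantile, normexp and quantile, median, cyclic loess and deposited scaling, and BRS3 to -0.09, -0.07, -0.08, -0.14 and -0.09. GALR3 became -0.04 with median and deposited scaling. With 1 array left out, SST ran from -0.53 to 0.22, GALR1 from -0.12 to 0.10, GALR3 from -0.0045 to 0.14, BRS3 from -0.08 to 0.12, CRHBP from -0.33 to 0.44, TAC3 from -0.30 to 0.63 and HCRTR1 from -0.19 to 0.02. The cause of these changes was not tested. With 4 fetuses per group, the 95% intervals were widest for GAL (-0.22 to 2.26) and PMCH (-0.79 to 1.41).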
